A study of Mus musculus with 33 samples.

Results

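The Gimap family of mouse GTPases was followed through the compartments of the thymus. Its members were all probe sets that the array annotation assigns to the symbols Gimap1, Gimap3, Gimap4, Gimap5, Gimap6, Gimap7, Gimap8 and Gimap9: 8 genes of the 18193 in the table, read by 11 probe sets. Gene expression had been measured on 33 arrays, 1 RNA sample each, from male C57BL/6J mice of 4 to 6 weeks, with no genetic change or treatment in any group. Tissue was microdissected from 3 parts of the cortex, subcapsular, central and perimedullary (n = 3 each), from the whole medulla (n = 7) and from the whole cortex (n = 7). Sorted medullary thymocytes (n = 5) were CD3hi and CD45+, and sorted cortical thymocytes (n = 5) had no or low CD3 (CD3-/lo) and carried CD45 with either CD90 or CD117. The gates select on CD3 and so on maturity. The titles call the arrays biological replicates without tying them to animals, so arrays may share animals and p-values measure the spread between these arrays.

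GTPases of immunity-associated proteins, or Gimaps, are proteins with an AIG1-type GTP-binding domain that are found mainly in lymphocytes and whose genes lie side by side on 1 chromosome. They are known for their part in the survival of T cells: rats and mice without functional Gimap5 lose peripheral T cells, and mouse Gimap3 and Gimap5 proteins bind members of the Bcl2 family. In the thymus, immature CD4+CD8+ thymocytes fill the cortex, and thymocytes that pass selection move into the medulla, mature and leave.

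The promoters are shown for Gimap4, Gimap7 and Gimap3, whose signals moved together across all 7 groups, and for Gimap9, which followed none of them. They are the RefSeq windows (build GRCm38.p6) from 250 bases before to 50 bases after the start of the gene, written 5′ to 3′ along the gene, with motif matches in capitals.
Gimap4 (chr6:48684328-48684627, plus strand): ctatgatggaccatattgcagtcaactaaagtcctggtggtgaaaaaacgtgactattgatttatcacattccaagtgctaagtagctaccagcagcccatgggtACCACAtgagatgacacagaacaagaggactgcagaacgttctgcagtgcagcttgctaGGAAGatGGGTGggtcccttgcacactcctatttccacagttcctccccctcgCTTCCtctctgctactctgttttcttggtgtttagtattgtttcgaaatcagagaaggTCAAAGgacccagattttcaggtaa
Gimap7 (chr6:48718371-48718670, plus strand): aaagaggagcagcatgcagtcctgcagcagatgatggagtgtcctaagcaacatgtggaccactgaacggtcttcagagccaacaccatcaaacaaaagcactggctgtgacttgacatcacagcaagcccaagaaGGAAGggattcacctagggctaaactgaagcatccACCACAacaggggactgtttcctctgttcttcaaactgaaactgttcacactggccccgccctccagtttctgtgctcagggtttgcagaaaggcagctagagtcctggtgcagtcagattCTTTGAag
Gimap3 (chr6:48770802-48771101, minus strand): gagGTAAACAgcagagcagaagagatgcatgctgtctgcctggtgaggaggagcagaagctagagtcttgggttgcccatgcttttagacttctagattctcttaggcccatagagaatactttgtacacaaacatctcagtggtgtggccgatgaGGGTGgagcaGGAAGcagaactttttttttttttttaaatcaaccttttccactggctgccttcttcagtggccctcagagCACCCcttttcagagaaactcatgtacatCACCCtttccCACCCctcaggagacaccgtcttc
Gimap9 (chr6:48675885-48676184, plus strand): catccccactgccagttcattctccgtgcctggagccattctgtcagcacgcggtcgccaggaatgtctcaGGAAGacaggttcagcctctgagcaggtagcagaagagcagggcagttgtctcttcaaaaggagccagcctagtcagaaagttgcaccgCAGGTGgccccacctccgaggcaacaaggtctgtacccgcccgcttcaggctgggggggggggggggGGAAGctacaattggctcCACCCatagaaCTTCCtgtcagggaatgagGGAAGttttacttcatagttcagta

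All 8 genes matched a window, 9 windows in all because Gimap8 had 2 that overlap. The 6 motifs searched on both strands were GGAAG (ETS family), CACCC (KLF family), TGTGGT (RUNX family), CTTTGA (TCF/LEF), GTAAACA (forkhead) and CAGGTG (the E-box of E proteins). GGAAG stood in the windows of 8 of 8 genes and in 71.41% of all 32851 windows of the same length. TGTGGT stood in those of Gimap1, Gimap4 and Gimap7 (16.76% of all windows), and CTTTGA in those of Gimap4 and Gimap7 (16% of all). CACCC was found for Gimap3, Gimap4, Gimap5, Gimap8 and Gimap9 (57.52% of all). GTAAACA stood only in the Gimap3 window (3.65% of all) and CAGGTG only in the Gimap9 window (20.21% of all). Among these 6 motifs, none apart from GGAAG was shared by Gimap3, Gimap4 and Gimap7. A match describes the letters and is not a binding site.

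Values are array signals on the deposited linear scale. A log2 fold change, or log2 difference, is a difference between group means of log2(signal + 26.2), with the standard error (SE) of a limma fit of all 33 arrays and a p-value adjusted over the 30045 probe sets that passed a filter on low signal. All 11 Gimap probe sets passed. A gene was called when it combined an adjusted p below 0.05 with a log2 fold change of 1 or more in size, and each gene is described by its brightest probe set. Signals of different probe sets are not compared with each other. Array medians ranged from 71.9 to 163. The signal exceeded by 0.1% of the probe sets was above 42000 on 13 arrays, which are 5 of 7 whole cortex, 5 of 7 whole medulla and 3 of 5 sorted medullary arrays. It was between 16919 and 19984 on the 9 arrays of cortical subregions. The labels name no batch, and tail width could be taken into account only as an alternative. The number of arrays limits the precision.

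**Figure D1:**
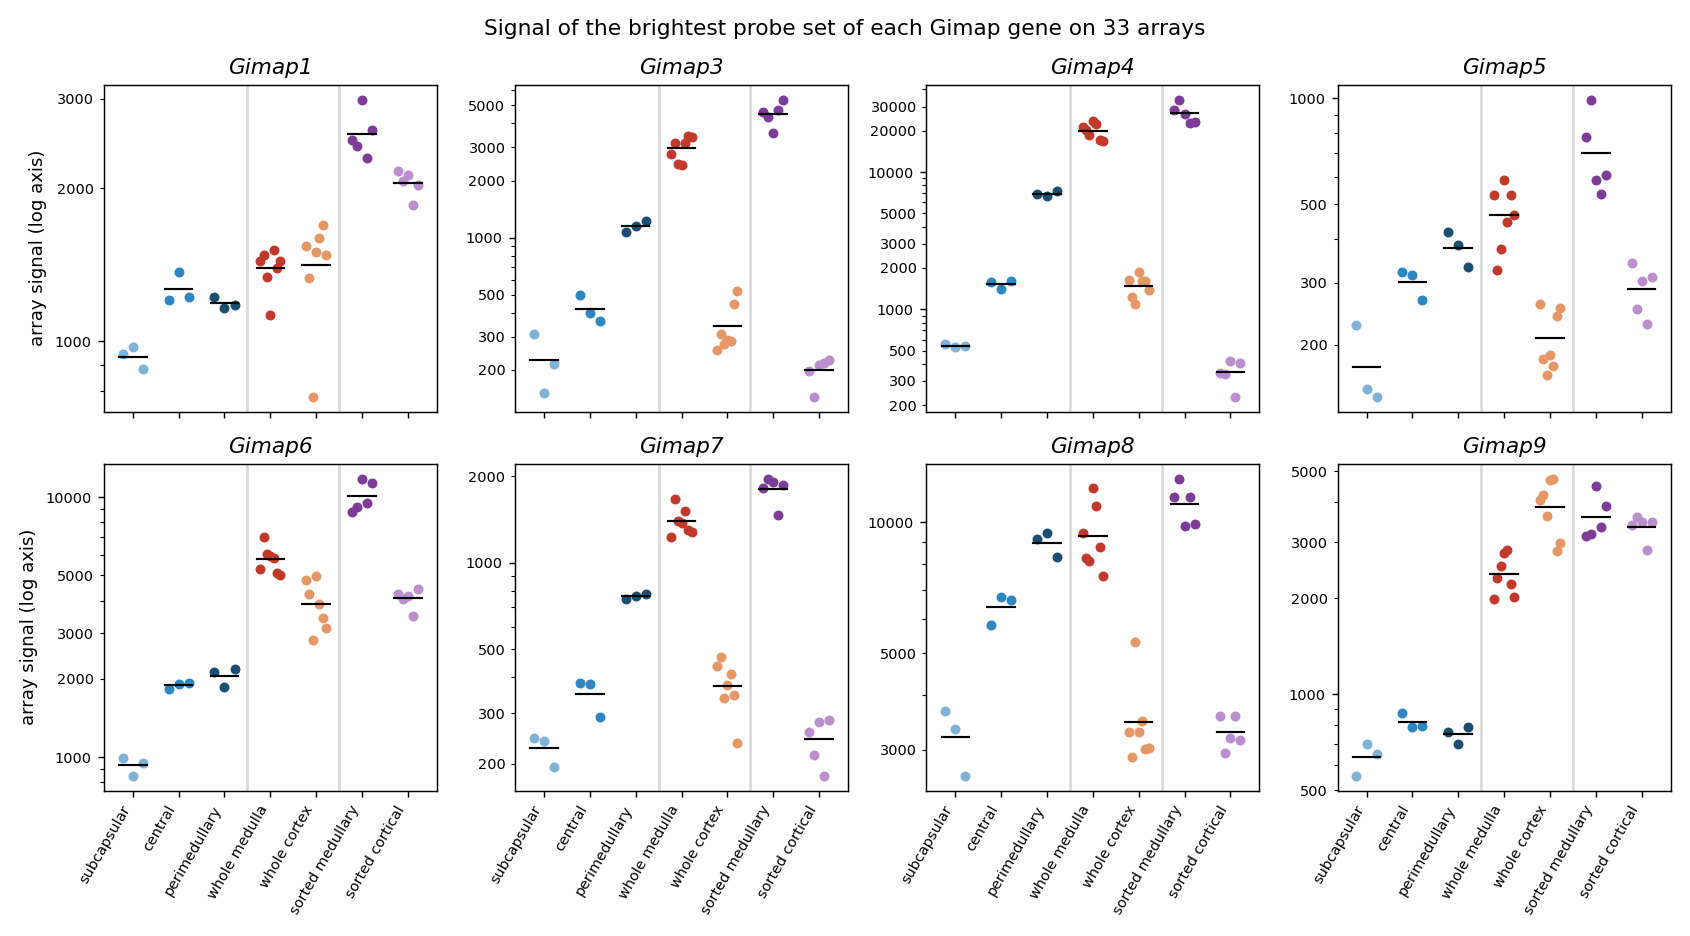
Array signal (log axis) of the brightest probe set of each of the 8 Gimap genes in the 7 groups. Each point is 1 array and each line the group mean. Gimap3, Gimap4 and Gimap7 climb from subcapsular to perimedullary cortex and are highest in sorted medullary thymocytes, whereas Gimap9 lies lower in all 3 cortical subregions than in the other 4 groups.

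From subcapsular through central to perimedullary cortex, all 8 genes had, by their brightest probe sets, a higher signal in every central array than in every subcapsular array, but only some went on to climb toward the medulla. The inner step was called for Gimap4, Gimap3 and Gimap7. Gimap4 showed both steps and the largest ones in the family, Gimap6 and Gimap8 had the larger fitted change in the outer step, and Gimap1 and Gimap9 changed least. The difference between the inner and the outer step was itself called in 0 of 8 genes, so this is a description of fitted values.

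Gimap4 (probe set 1424375_s_at) encodes a GTPase linked to the timing of T cell death. Its signal was 555, 527 and 543 in subcapsular, 1579.7, 1407 and 1594 in central and 6931, 6697 and 7241 in perimedullary cortex. The 3 subregions did not overlap. Gimap4 was higher in central than in subcapsular cortex by 1.45 (SE 0.18, adjusted p = 1.9e-06) on the log2 scale. It was higher again in perimedullary than in central cortex, by 2.17 (SE 0.18, adjusted p = 1.9e-10). Over both steps the mean signal was 12.8 times as high in perimedullary as in subcapsular cortex. A second Gimap4 probe set, 1424374_at, gave 1.23 (SE 0.21) for the outer and 2.36 (SE 0.21) for the inner step, both called.

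Gimap3 (1449220_at) is the closest relative of Gimap5 and encodes a protein of intracellular membranes. Its signal was 309, 151 and 215 in subcapsular, 498, 402 and 361 in central and 1075, 1153 and 1218 in perimedullary cortex. The subregions did not overlap, and the subcapsular arrays ranged most widely for their level. The inner step was 1.41 (SE 0.22, adjusted p = 8e-05). The outer step was 0.87 (SE 0.22, adjusted p = 0.016), below the fold threshold.

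Gimap7 (1425084_at), whose human protein hydrolyses GTP as a dimer, behaved similarly in the inner step. Its signal was 245, 240.0 and 195 in subcapsular, 381, 378 and 291 in central and 747, 767 and 781 in perimedullary cortex. The inner step was 1.08 (SE 0.18, adjusted p = 0.00027), and the groups did not overlap. This call was lost, at 0.96, without central replicate 3 and, at 0.99, after quantile normalization. The outer step was 0.57 (SE 0.18, adjusted p = 0.068) and did not pass. Its dim second probe set, 1444283_at, had signals of 156, 157 and 172 in perimedullary and 11.9, 44.6 and 74.3 in central cortex, with a larger but less certain inner step of 1.54 (SE 0.46, adjusted p = 0.11). In the outer step this probe set had 0.28 (SE 0.46, adjusted p = 0.88), and its central and subcapsular arrays overlapped.

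Gimap8 and Gimap6 differed between subcapsular and central cortex. Gimap8 (1456061_at), which encodes a protein with several GTPase domains, had 3676, 3340.2 and 2615 in subcapsular, 5813, 6724 and 6632 in central and 9177, 9445 and 8329 in perimedullary cortex. Its subregions did not overlap, and its outer step of 0.999 (SE 0.17, adjusted p = 0.00044) missed the fold threshold by less than its SE and passed it, at 1.08, after quantile normalization. The inner step was 0.49 (SE 0.17, adjusted p = 0.25 in the limma fit of all arrays, and 0.0085 in that without wide-tail arrays). Gimap6 (1427891_at), linked to autophagy in lymphocytes, had 997, 849 and 949 in subcapsular, 1822, 1916 and 1929 in central and 2131, 1870.1 and 2183 in perimedullary cortex. Only the subcapsular arrays stood apart. The outer step of Gimap6 was 1.002 (SE 0.16, adjusted p = 0.00017) and was called, though not after quantile normalization (0.92), and the inner step was 0.12 (SE 0.16, adjusted p = 1). The other Gimap6 probe set, 1456762_at, gave 1.28 (SE 0.25) and 0.38 (SE 0.25).

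Gimap5, Gimap1 and Gimap9 passed in neither single step. Gimap5 (1444181_at), needed for the survival of T cells, had 227, 149 and 142 in subcapsular, 321, 315 and 268 in central and 417, 384 and 331 in perimedullary cortex. It reached the threshold only across both steps, at 1.04 (SE 0.22, adjusted p = 0.0015), and no longer without subcapsular replicate 2 or 3 or perimedullary replicate 1, at 0.93 to 0.97, or after quantile normalization, at 0.84. Gimap1 (1449988_at), which mature lymphocytes need to persist, had 943, 974 and 883 in subcapsular, 1205, 1369 and 1223 in central and 1222, 1162 and 1180.1 in perimedullary cortex, and Gimap9 (1437756_at) had 556, 697 and 651, 875, 791 and 798 and 762, 699 and 791 in the same order. In both genes the subcapsular arrays were the lowest and the other 2 subregions overlapped. Perimedullary minus subcapsular was 0.34 (SE 0.17, adjusted p = 0.21) for Gimap1 and 0.24 (SE 0.17, adjusted p = 0.43) for Gimap9.

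**Figure D2:**
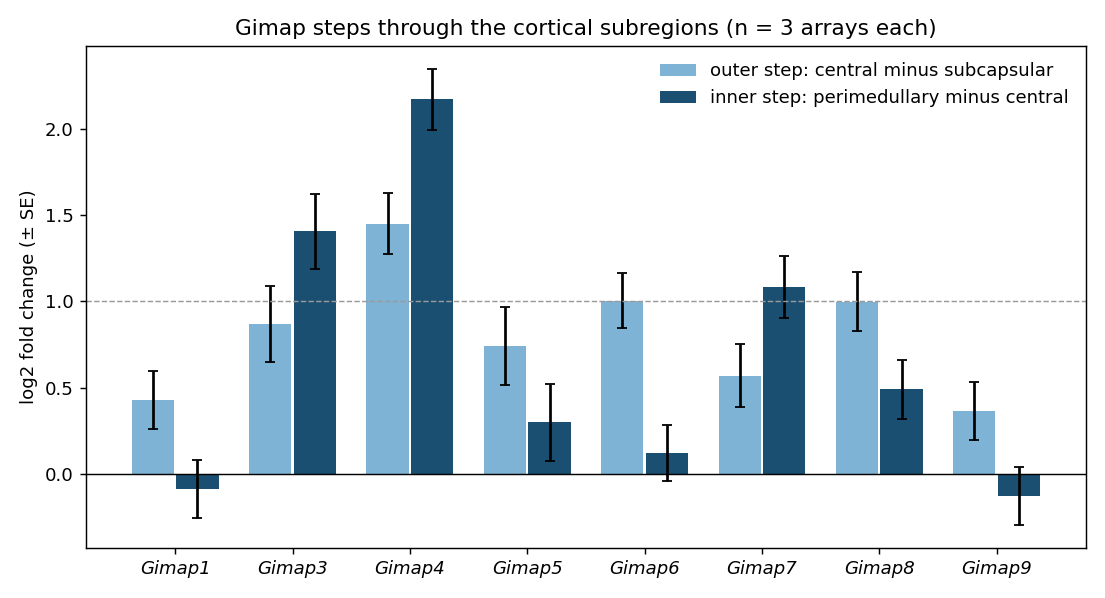
Log2 fold change (bars) with its SE (whiskers) for the outer step, central minus subcapsular cortex, and the inner step, perimedullary minus central cortex, of each Gimap gene (n = 3 arrays per subregion). The dashed line marks a log2 fold change of 1, which the inner step passes for Gimap3, Gimap4 and Gimap7 and the outer step for Gimap4 and Gimap6.

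Of the 8 genes, 3 were called higher in perimedullary than in central cortex (Gimap3, Gimap4 and Gimap7), where 0.912% of all probe sets were called higher. The median log2 fold change of the 8 was 0.39. In central over subcapsular cortex 2 genes were called higher (Gimap4 and Gimap6), against 0.393% of all probe sets, with a median of 0.80. In perimedullary over subcapsular cortex 6 were called higher, against 2.99% of all probe sets, with a median of 1.31. No gene was called lower in any of these comparisons, against 0.0233%, 0.559% and 1.19% of all probe sets in the same order. All central arrays stood above all subcapsular arrays in 8 of 8 genes and in 20.6% of all probe sets. All perimedullary arrays stood above all central arrays in 5 of 8 genes and in 14.2% of all probe sets. The difference between the inner and the outer step, which share the central arrays, was called by limma in 0 of 8 genes (2 at an unadjusted p below 0.05; 0.396% of all probe sets were called higher and 0.0999% lower), with Gimap4 at 0.72 (SE 0.30, adjusted p = 0.58) and Gimap6 at -0.88 (SE 0.28, adjusted p = 0.22). Leaving out single arrays moved the count in the outer step: it was 4 without subcapsular replicate 1, 3 without central replicate 1 and 1 without central replicate 2 or 3, where Gimap6 fell to 0.99. Gimap6 was also lost without subcapsular replicate 2, at 0.94, whereas Gimap4 was called whichever array was left out.

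Lists of cell markers were set beside the cortical steps. Of 12 tested genes of mature thymocytes and of thymic exit (14 listed), 9 were called higher in perimedullary than in central cortex and 0 lower. Their summed signal was 8880.2 to 9656 in subcapsular, 9091 to 11042 in central and 23504 to 25777 in perimedullary cortex. Ccr7, the chemokine receptor that guides thymocytes into the medulla, had 646 ± 51.6 in perimedullary and 112 ± 15.9 in central cortex (SD, n = 3 each) and a log2 difference of 2.28 (SE 0.22, adjusted p = 8.4e-09). Ms4a4b, a membrane protein of mature T cells, had 5735 ± 290.4 and 1253 ± 77.5 in the same order. In the outer step 1 of these 12 genes was higher (Ccr7) and 1 was lower, Igfbp4, which encodes an insulin-like growth factor binding protein, at -1.35 (SE 0.19, adjusted p = 1.9e-05).

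Macrophage markers, 8 of 8 tested, summed to 14998 to 17344 in perimedullary and 8541 to 11001 in central cortex, with 1 called higher and 1 lower. Dendritic cell markers (6 of 7 tested) summed to 998 to 1049.9 in perimedullary and 453 to 537 in central cortex, with 2 called higher. B cell markers (5 of 6) summed to 1693 to 2108 and 939.5 to 1066, with 1 called higher, Ms4a1, which encodes CD20. For medullary epithelium (4 of 5 tested, 0 called) the sums were 1140.1 to 1229 in perimedullary and 723 to 774 in central cortex, against 13489 to 15251 in whole medulla. Endothelial markers (9 of 11) summed to 1073 to 1173 and 814 to 854, with 1 called higher, and NK cell markers (5 of 7) to 5052 to 5794 and 4903 to 5626, with 2 called higher. In the outer step 3 of 6 mesenchymal markers were lower in central cortex, where they summed to 1984 to 2640.0, against 5943 to 7641 in subcapsular cortex. Of 10 tested double-positive thymocyte genes and 5 cortical epithelial markers, 0 were called in either step. No marker was at 0 in any group, and the part of these cell types in the Gimap steps was not tested. In dissected tissue, fewer cells of a type and less RNA per cell cannot be told apart.

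Whole medulla was higher than whole cortex in 5 of the 8 genes, and again Gimap4 and Gimap3 showed the largest differences. Gimap4 had a lowest signal of 16762, a median of 20419 and a highest of 23567 in whole medulla, against a lowest signal of 1091, a median of 1606 and a highest of 1882 in whole cortex. The lowest medulla array was far above the highest cortex array, and the log2 fold change was 3.74 (SE 0.12, adjusted p = 7.3e-24). By the second probe set, 1424374_at, it was 3.30 (SE 0.14, adjusted p = 1.5e-20). Gimap3 had a lowest signal of 2407, a median of 3163 and a highest of 3440.5 in medulla and a lowest signal of 256, a median of 289 and a highest of 519.7 in cortex, a log2 difference of 3.06 (SE 0.14, adjusted p = 4.5e-19). Gimap7 had a lowest signal of 1234, a median of 1375 and a highest of 1671 in medulla and a lowest signal of 236, a median of 377 and a highest of 469 in cortex, and its log2 fold change was 1.85 (SE 0.12, adjusted p = 2.4e-15). The groups did not overlap in either gene.

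Gimap8 had a lowest signal of 7530.0, a median of 8776 and a highest of 12014 in medulla and a lowest signal of 2892, a median of 3296 and a highest of 5297 in cortex, with a log2 difference of 1.42 (SE 0.11, adjusted p = 5.1e-13). Gimap5 had a lowest signal of 326, a median of 465 and a highest of 585 in medulla and a lowest signal of 163, a median of 187 and a highest of 261 in cortex, at 1.06 (SE 0.15, adjusted p = 1.7e-07), or 0.83 and not called after quantile normalization. The arrays of the compartments did not overlap in these genes either. Gimap6 was higher by less than the fold threshold, at 0.58 (SE 0.10, adjusted p = 1.6e-05), with a lowest signal of 5002, a median of 5810.5 and a highest of 7053 in medulla and a lowest signal of 2816, a median of 3873 and a highest of 4967 in cortex. Its other probe set, 1456762_at, had 0.43 (SE 0.16, adjusted p = 0.023), and there the arrays overlapped. Gimap1 did not differ beyond its spread, with 1391 ± 130.2 in medulla and 1416 ± 302 in cortex (SD, n = 7 each) and a log2 fold change of 0.00 (SE 0.11). Gimap9 ran the other way, with a lowest signal of 1986, a median of 2314 and a highest of 2837 in medulla and a lowest signal of 2802, a median of 4072 and a highest of 4736 in cortex. Its compartments overlapped slightly, and its log2 difference of -0.68 (SE 0.11, adjusted p = 2.8e-06) was below the fold threshold.

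Of all probe sets, 15.7% were called higher and 4.84% lower in whole medulla, against 5 and 0 of the 8 genes, whose median log2 fold change was 1.24. Arrays did not overlap, with medulla above, in 6 of 8 genes and in 14.2% of all probe sets. Within the arrays with a wide tail Gimap4 had a log2 fold change of 3.84 and within the others 3.48, Gimap3 had 3.18 and 2.77, Gimap7 had 1.76 and 2.07, and Gimap9 had -0.78 and -0.45. Gimap5 had 1.11 and 0.94 in the same order and was not called in the arrays without a wide tail, where 4 genes were called, against 5 in those with one. Of the mature thymocyte list, 12 of 12 tested genes were higher in medulla, with summed signals of 79909 to 95562 in medulla and 10830.4 to 15082 in cortex. Double-positive thymocyte genes were lower in 10 of 10 tested (11 listed), with 15044 to 20296 in medulla and 134288 to 218907 in cortex. Of other cells, 5 of 6 dendritic cell, 4 of 4 medullary epithelial, 4 of 6 mesenchymal, 4 of 9 endothelial, 3 of 5 B cell, 3 of 5 NK cell and 3 of 8 macrophage markers were higher in medulla, and 4 of 5 cortical epithelial, 1 NK cell and 1 macrophage marker were lower. Dendritic cell markers summed to 6599 to 7913 in medulla and 511 to 791 in cortex, and medullary epithelial markers to 13489 to 15251 and 419.7 to 897. NK cell markers had a lower sum in medulla, at 2852 to 3418 against 6041 to 9607 in cortex, although the median log2 fold change of the 5 tested was 1.94. The part of these cells in the tissue differences was not tested.

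In sorted thymocytes 6 of the 8 genes were higher in medullary cells, and Gimap4, Gimap3, Gimap7 and Gimap8 again had the largest differences. Gimap4 had 28223, 33642, 26671, 22838 and 23196 in sorted medullary and 340.0, 338, 418, 230.0 and 405 in sorted cortical thymocytes. The mean signal was 77.7 times as high in medullary cells, and the log2 fold change was 6.19 (SE 0.14, adjusted p = 2.2e-27). By the second probe set, 1424374_at, these were 57.4 times and 5.72 (SE 0.16, adjusted p = 5.9e-25). Gimap3 had 4593, 4305, 3542, 4715 and 5336 in medullary and 197, 144, 213, 218 and 227 in cortical thymocytes, with a log2 difference of 4.32 (SE 0.17, adjusted p = 5.8e-21). In both genes every medullary array stood far above every cortical one. Gimap7 had 1819.7, 1961, 1904, 1465 and 1867 in medullary and 257, 214, 280.1, 182 and 284 in cortical thymocytes, at 2.77 (SE 0.14, adjusted p = 7.5e-18).

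Gimap8 had 11425, 12595, 9812, 11438 and 9900.4 in medullary and 3587, 2954, 3186, 3577 and 3164 in cortical thymocytes, at 1.73 (SE 0.13, adjusted p = 4.5e-13). Gimap6 had 8788, 9194, 11765, 9531 and 11367 in medullary and 4225, 4070.2, 4180.5, 3495 and 4429.6 in cortical thymocytes, at 1.30 (SE 0.12, adjusted p = 1e-10). Its other probe set, 1456762_at, was just below the fold threshold, at 0.98 (SE 0.19, adjusted p = 9e-05). Gimap5 had 775, 991, 586, 536 and 606 in medullary and 341, 253, 304, 228 and 310.5 in cortical thymocytes, at 1.19 (SE 0.17, adjusted p = 9.7e-07). The groups did not overlap in these 3 genes. Gimap1 had 2486, 2420.0, 2985, 2299 and 2602 in medullary and 2164, 2065, 2126, 1856 and 2029 in cortical thymocytes, which did not overlap, but its log2 difference of 0.31 (SE 0.13, adjusted p = 0.059) did not pass. Gimap9 overlapped, with 3140.3, 3169, 4493, 3346 and 3878 in medullary and 3398, 3583, 3476, 2826 and 3461 in cortical thymocytes, at 0.10 (SE 0.13, adjusted p = 0.62).

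In all, 6 of 8 genes were called higher in sorted medullary thymocytes and 0 lower, where 7.04% of all probe sets were higher and 5.91% lower, and the median log2 fold change of the 8 was 1.52. Arrays stood apart, with medullary above, in 7 of 8 genes and in 13.7% of all probe sets. No sorted cortical array had a wide tail. Against the 2 sorted medullary arrays without one, 5 genes were called, since Gimap5 was at 0.94. In the sorted groups macrophage markers summed to 339 to 502 in medullary and 257 to 333 in cortical thymocytes. Medullary epithelial markers summed to 131 to 248 and 83.5 to 189 in the same order. Both lists lay below the sums of every tissue group, as did mesenchymal and cortical epithelial markers. Endothelial markers did not, at 1117.4 to 1590.4 in medullary and 1022.6 to 1264.0 in cortical thymocytes. They lay above subcapsular (890.1 to 901.1) and central cortex (814 to 854). B cell and dendritic cell sums of both sorted groups overlapped those of subcapsular cortex. Of the NK cell markers, 4 of 5 tested were called higher and 1 lower in medullary thymocytes. Their summed signals overlapped, at 4241 to 6745 in medullary and 4179 to 5752 in cortical thymocytes. Nkg7, a protein of cytotoxic granules in NK and T cells, had 3.31 (SE 0.19, adjusted p = 1.3e-16). Double-positive thymocyte genes, such as those of receptor rearrangement, were lower in 8 of 10 and summed to 28518 to 40730.4 in medullary and 127792 to 136658 in cortical thymocytes. The part of these lists in the Gimap differences was not tested. The mature thymocyte list was higher in 12 of 12 tested genes, and the gate on CD3 selects in the same direction.

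Among genes whose products work beside Gimaps, the Bcl2 family of death regulators (9 of 10 tested) had 2 genes higher and 2 lower in sorted medullary thymocytes. Bcl2, which protects lymphocytes from death, was higher, at 2.83 (SE 0.17, adjusted p = 8.4e-16). Bcl2l1, which encodes Bcl-x and protects double-positive thymocytes, was lower, at -1.82 (SE 0.17, adjusted p = 5.3e-11), as was Bid, which promotes death, at -1.55 (SE 0.12, adjusted p = 1.3e-12). In the tissue, 2 were higher and 1 lower in medulla, and in neither cortical step was any of the 9 called. Of another family of immune GTPases, those induced by interferon (12 of 14 tested), 10 were higher and 1 lower in each of the compartment comparisons. In the inner step 2 were higher, Mx1, an antiviral GTPase, at 1.48 (SE 0.35, adjusted p = 0.015), and Iigp1, an immunity-related GTPase, at 1.36 (SE 0.17, adjusted p = 1.2e-06). In the outer step 0 of the 12 were called higher and 1 lower in central cortex, Iigp1, at -1.15 (SE 0.17, adjusted p = 3.6e-05). The median log2 fold change of the 12 was 0.07. In that step 2 of the 8 Gimap genes were called higher, with a median of 0.80.

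**Figure D3:**
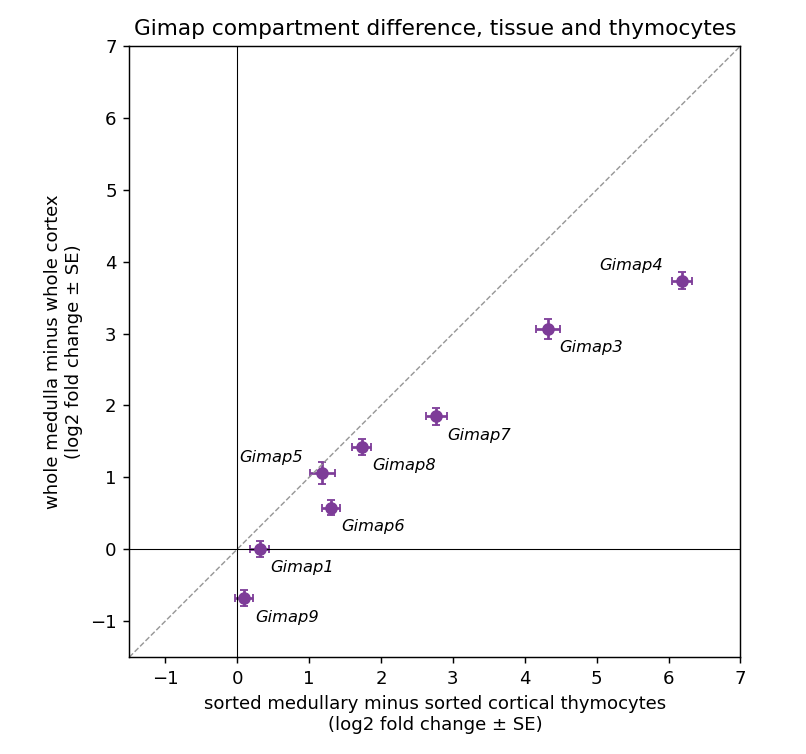
Log2 fold change of whole medulla over whole cortex (vertical axis, n = 7 arrays each) against that of sorted medullary over sorted cortical thymocytes (horizontal axis, n = 5 each) for each Gimap gene, with SE on both axes. All 8 points lie below the dashed line of equal change, Gimap4 farthest, at 3.74 in tissue and 6.19 in thymocytes.

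The log2 difference of medulla over cortex was lower in tissue than in sorted thymocytes for several members. This was tested as an interaction, the tissue difference minus the thymocyte difference. Gimap4 had -2.45 (SE 0.18, adjusted p = 8.1e-13) and Gimap3 -1.26 (SE 0.22, adjusted p = 4.8e-05), and both were called. That is 2 of 8 genes called lower and 0 higher, against 2.07% and 9.34% of all probe sets, with a median of -0.75. Gimap7 at -0.92 (SE 0.18, adjusted p = 0.00025), Gimap9 at -0.78 (SE 0.17, adjusted p = 0.0008) and Gimap6 at -0.72 (SE 0.16, adjusted p = 0.001) were below the fold threshold (Gimap7 passed it, at -1.02, without whole cortex replicate 7), so that 5 of 8 genes had an adjusted p below 0.05 in this direction, as had 8.75% of all probe sets. For Gimap9 this is no smaller difference, since it had -0.68 in tissue and 0.10 in thymocytes. By their second probe sets Gimap7 and Gimap6 did not pass, at -0.17 (SE 0.46, adjusted p = 0.86) and -0.55 (SE 0.25, adjusted p = 0.12). Gimap5, Gimap8 and Gimap1 did not pass, at -0.12 (SE 0.23), -0.31 (SE 0.17) and -0.31 (SE 0.17). Of the 12 mature thymocyte genes, 6 had a negative interaction that was called and 0 a positive one.

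For Gimap4 the larger gap between tissue and cells was that of the cortex. These comparisons share their arrays with the ones above. Whole cortex was higher than sorted cortical thymocytes by 2.03 (SE 0.13, adjusted p = 3.6e-15), the only member called in that comparison, against 7.23% of all probe sets called higher and 5.2% lower. Gimap3 had 0.67 (SE 0.16, adjusted p = 0.001) and Gimap7 0.56 (SE 0.13, adjusted p = 0.0009) there, and Gimap1 was lower in whole cortex, at -0.56 (SE 0.12, adjusted p = 0.00038). On the medullary side, whole medulla had a lower signal than sorted medullary thymocytes in the fitted value of all 8 genes, from -0.87 for Gimap1 to -0.26 for Gimap8. For 7 of the 8 the adjusted p was below 0.05, as for 20.8% of all probe sets in this direction, and 0 were called at the fold threshold, against 3.75% of all probe sets called lower. Gimap4 had -0.42 (SE 0.13, adjusted p = 0.0064) and Gimap6 -0.81 (SE 0.11, adjusted p = 3.6e-07). Of the second probe sets, 1456762_at of Gimap6 was called lower, at -1.03 (SE 0.18, adjusted p = 9.4e-06). That of Gimap4, 1424374_at, had -0.78 (SE 0.15, adjusted p = 5.1e-05), and that of Gimap7, 1444283_at, had 0.13 (SE 0.33, adjusted p = 0.79). Where tissue is set against sorted cells, the kind of sample and the RNA isolation kit cannot be told apart.

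Perimedullary cortex and whole medulla were set side by side to place the inner cortex on this scale. Whole medulla was called higher in 4 of 8 genes, Gimap3, Gimap4, Gimap6 and Gimap9, and lower in 0, where 19.5% of all probe sets were higher and 9.92% lower. Gimap4 still had 1.51 (SE 0.15, adjusted p = 1.8e-10) and Gimap3 1.34 (SE 0.18, adjusted p = 1.8e-07). Gimap8 did not differ beyond its spread, with 9296 ± 1622 in medulla (SD, n = 7) and 8984 ± 583 in perimedullary cortex (SD, n = 3), a difference of 0.03 (SE 0.14). For Gimap5 it was 0.27 (SE 0.19) and the arrays overlapped. Gimap6 was called by its brightest probe set alone, at 1.46 (SE 0.13, adjusted p = 4e-11), whereas 1456762_at gave -0.23 (SE 0.21, adjusted p = 0.36). Gimap9 had 1.62 (SE 0.14, adjusted p = 1.3e-11). By the same probe sets perimedullary cortex was also below whole cortex, at -2.30 for Gimap9 and -0.88 for Gimap6. Whole medulla minus whole cortex was -0.68 for Gimap9, so its value here is no rise from cortex as a whole to medulla. All perimedullary arrays have a narrow tail and 5 of 7 medulla arrays a wide one.

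Whole cortex did not lie between its own subregions for every member. Gimap4 and Gimap3 had whole cortex near central cortex, at 0.06 (SE 0.15, adjusted p = 0.78) and 0.32 (SE 0.18, adjusted p = 0.16) for central minus whole cortex. The second Gimap4 probe set, 1424374_at, had central below whole cortex, at -0.84 (SE 0.18, adjusted p = 0.00016), with no overlap, so that probe sets of Gimap4 disagree here. Gimap8 was higher in perimedullary than in whole cortex, at 1.39 (SE 0.14, adjusted p = 6.9e-10), and its central cortex, at 0.90 (SE 0.14, adjusted p = 3.7e-06), was also above whole cortex. Of all probe sets, 14.3% were called higher in perimedullary than in whole cortex. Gimap9 was lower in each of the 3 subregions than in whole cortex, at log2 fold changes of -2.54 (SE 0.14, adjusted p = 3.7e-16) in subcapsular, -2.18 (SE 0.14, adjusted p = 1.5e-14) in central and -2.30 (SE 0.14, adjusted p = 2.9e-15) in perimedullary cortex. Every subregion array of Gimap9, from 556 to 875, was below every whole cortex array, from 2802 to 4736. Of all probe sets, 8.36% were called lower in each of the 3 subregions. Double-positive thymocyte genes also had lower sums there than in whole cortex, at 134288 to 218907. They summed to 69082.5 to 74425 in subcapsular, 79545 to 87041 in central and 71080 to 75790 in perimedullary cortex. Mature thymocyte genes went the other way in perimedullary cortex, at 23504 to 25777 against 10830.4 to 15082 in whole cortex. The part of these lists in the Gimap9 values was not tested. Gimap6 was also lower in all 3 by its brightest probe set, from -2.01 (SE 0.13, adjusted p = 3.4e-14) in subcapsular to -0.88 (SE 0.13, adjusted p = 1.3e-06) in perimedullary cortex. Its other probe set was -0.99 (SE 0.21, adjusted p = 0.00017) in subcapsular and 0.66 (SE 0.21, adjusted p = 0.0076) in perimedullary cortex, so that probe sets of Gimap6 disagree on this order. None of the 9 subregion arrays has a wide tail. The 2 whole cortex arrays without one, replicates 6 and 7, had Gimap9 signals of 2802 and 2982, also above every subregion array, although the signal exceeded by 0.1% of their probe sets was still higher, at 39952 and 35990.

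In order of level, 7 of 8 genes were highest in sorted medullary thymocytes. For Gimap4 whole medulla, perimedullary, central and whole cortex, subcapsular cortex and sorted cortical thymocytes followed, and among these neighbours only central and whole cortex missed the adjusted p threshold of 0.05 (adjusted p = 0.78). This order is that of the brightest Gimap4 probe set. In 1424374_at whole cortex stood above central cortex (adjusted p = 0.00016) and sorted cortical thymocytes above subcapsular cortex (adjusted p = 0.06), the last pair overlapping. Gimap3 had the order of the brightest Gimap4 probe set, and there subcapsular cortex and sorted cortical thymocytes did not differ beyond their spread either (adjusted p = 0.66). For Gimap7 the lowest groups were sorted cortical thymocytes and subcapsular cortex, with an adjusted p of 0.71 between them. Gimap8 had whole medulla and perimedullary cortex level (adjusted p = 0.86), and whole cortex, sorted cortical thymocytes and subcapsular cortex close together at the bottom (adjusted p = 0.77 and 0.83 between neighbours). For Gimap1 sorted cortical thymocytes came next to sorted medullary ones (adjusted p = 0.059), above all tissue groups. Gimap9 was highest in whole cortex, which did not differ beyond its spread from sorted medullary thymocytes (adjusted p = 0.56).

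**Figure D4:**
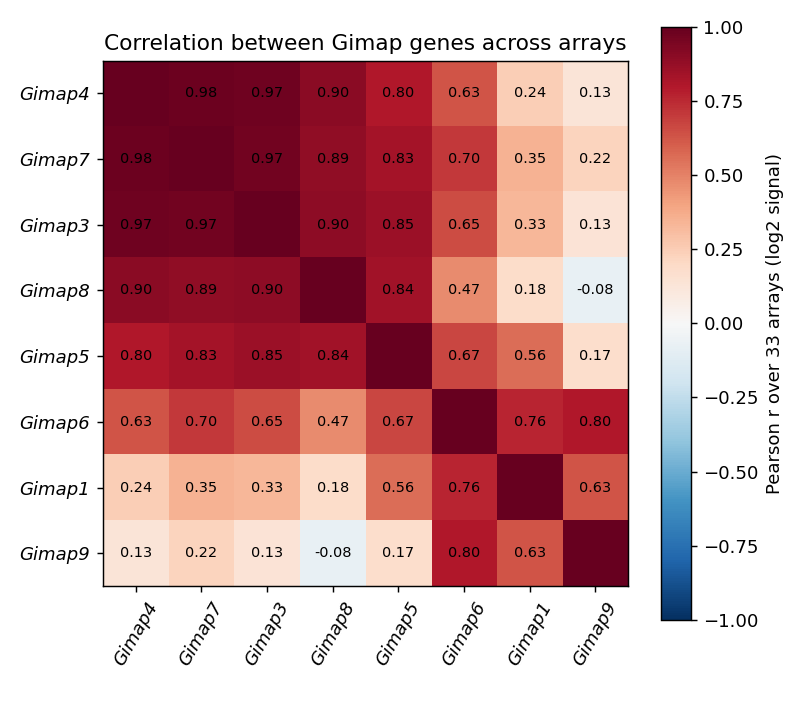
Pearson correlation between the brightest probe sets of the 8 Gimap genes over 33 arrays on the log2 scale. Gimap3, Gimap4 and Gimap7 form a block at 0.97 to 0.98, Gimap8 and Gimap5 lie next to it, and Gimap9 has its highest value with Gimap6, at 0.80.

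Across the 33 arrays, which fall into 7 groups and share the differences between them, the members split in their course. Gimap4 and Gimap7 had a Pearson correlation of 0.98, Gimap3 and Gimap4 of 0.97 and Gimap3 and Gimap7 of 0.97. Gimap8 followed these 3 at 0.89 to 0.90 and Gimap5 at 0.80 to 0.85. Gimap9 had 0.13 with both Gimap3 and Gimap4, 0.80 with Gimap6 and 0.63 with Gimap1. Over all members, the genes with the most similar course among 13455 were Cd2, an adhesion receptor of T cells, with a mean correlation of 0.774, and then Klk8, Nab2, Pim2, Cd53 and Trib2, down to 0.766. Cd2 had a mean signal of 18669.5 ± 2608 in sorted medullary and 3341 ± 309 in sorted cortical thymocytes (SD, n = 5 each), and 9649.8 ± 1461 in whole medulla and 3537 ± 617 in whole cortex (SD, n = 7 each). The gene nearest to Gimap4 was Nlrc5, at 0.979, that nearest to Gimap3 and to Gimap7 was Cnn2, at 0.985 and 0.972, and that nearest to Gimap9 was Taf1b, at 0.978. These values describe the arrays and carry no test.

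**Figure D5:**
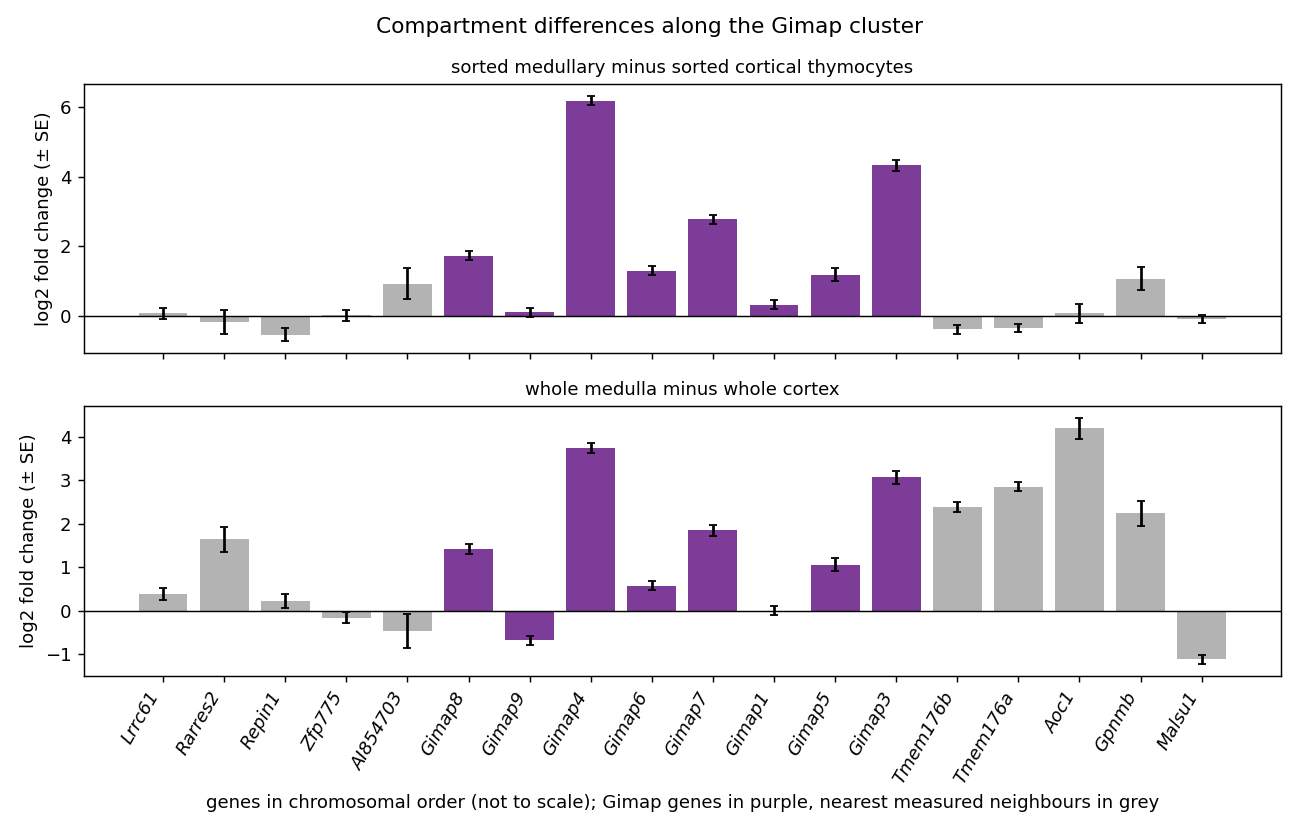
Log2 fold change with SE of the Gimap genes (purple) and the 5 nearest measured neighbours on each side (grey), in their order on mouse chromosome 6 and not to scale, for sorted medullary over sorted cortical thymocytes (n = 5 arrays each) and for whole medulla over whole cortex (n = 7 each). In thymocytes 1 of 10 neighbours passed the threshold, Gpnmb at 1.07, where 7.04% of all probe sets were called higher. In tissue Tmem176b, Tmem176a, Aoc1 and Gpnmb next to Gimap3 were higher in medulla, where 15.7% of all probe sets were called higher.

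On chromosome 6 the RefSeq order was Gimap8, Gimap9, Gimap4, Gimap6, Gimap7, Gimap1, Gimap5 and Gimap3. Members with large and small differences alternated along it: Gimap9, without a difference in thymocytes, lies between Gimap8 at 1.73 and Gimap4 at 6.19, and Gimap1 lies between Gimap7 at 2.77 and Gimap5 at 1.19. The 10 nearest measured neighbours, 5 on each side, had 0 calls in both cortical steps. Of all probe sets, only 0.912% were called higher in the inner and 0.393% in the outer step. In sorted thymocytes 1 neighbour was higher, against 7.04% of all probe sets. This was Gpnmb, a membrane glycoprotein of macrophages and other cells, at 1.07 (SE 0.33, adjusted p = 0.011). In tissue 5 were higher in medulla and 1 lower, against 15.7% and 4.84% of all probe sets. Aoc1, a diamine oxidase, had 4.19 (SE 0.23, adjusted p = 5e-17), and Tmem176b and Tmem176a, membrane proteins of antigen-presenting cells, had 2.39 (SE 0.11, adjusted p = 1e-19) and 2.85 (SE 0.10, adjusted p = 3.8e-22). In sorted thymocytes Tmem176b had -0.39 (SE 0.12, adjusted p = 0.014) and Tmem176a -0.35 (SE 0.12, adjusted p = 0.023). Gimap3, the member beside them, had 4.32 there.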

How the data were processed

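RNA was primed with oligo-dT, labelled with biotin and hybridised to Affymetrix arrays, per the labels' protocols. RNA came from dissected tissue by RNAqueous Micro kits (Ambion) and from sorted cells by RNeasy Mini kits (Qiagen). The deposited intensity values give 1 signal per probe set on a linear scale, and for them the submitters' processing notes name Expression Console 1.0 (Affymetrix) and MAS5. The values show each array scaled alone: its mean signal without the lowest and highest 2% lay between 492 and 498. Genome build, scan dates and batches are not given in the sources used here.

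Of 45037 probe sets, 34945 have 1 gene symbol in the platform annotation, 932 several and 9160 none. None of the 11 Gimap probe sets has several. Probe sets above the median of their own array in at least 3 arrays were kept (30045). To each signal 26.2 was added, the 25th percentile of a typical (median) array. On the log2 scale, 7 group means were fitted to 33 arrays in limma 3.58.1 (R 4.3.3), with 26 residual degrees of freedom, a spread moderated along the mean signal, 2-sided tests and Benjamini-Hochberg adjustment over all kept probe sets. The offset makes fold changes of weak signals smaller. The fit was tested on simulated data.

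All 8 members are named, with the 6 other genes of most similar course, 5 neighbours on each side, and up to 3 called members of each gene list, those of largest absolute change, or the member of smallest p where none was called. Some of these are covered by counts. Nlrc5, Cnn2 and Taf1b, the genes nearest to single members, were named in addition. Members, lists and motifs were chosen with earlier results of these data known. Promoter windows are from RefSeq (GRCm38.p6), and gene order from its gene table. Alternatives were a smaller offset, quantile normalization, no filter or a stricter one, other choices of probe sets, only the groups compared, a replicate block, array weights, tail width, and each array left out.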

Additional observations from a re-analysis of the deposited data

Results flagged for a closer look

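Of 44 groups of arrays in which a probe set could be checked for an array far from the others, 6 had one. Chance gives about 1 in 20. The gap to the nearest array over the whole range of the group, both taken on the log2 scale of the fit, is given for each beside the linear signals. Gimap1 in whole medulla had replicate 4 lowest, at 1124 against 1340 to 1512 in the others (0.59). Gimap1 in whole cortex had replicate 3 lowest, at 778 against 1332 to 1694 (0.69). The same array was highest for Gimap8, at 5297 against 2892 to 3489 (0.69). Gimap4 probe set 1424374_at in whole medulla had replicate 5 highest, at 8765 against 6742 to 7515 (0.59). Gimap7 probe set 1425084_at in sorted medullary thymocytes had replicate 4 lowest, at 1465 against 1820 to 1961 (0.74). Gimap9 in sorted cortical thymocytes had replicate 4 lowest, at 2826 against 3398 to 3583 (0.78).

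An interaction term in limma, the medulla over cortex difference in tissue minus the medullary over cortical difference in sorted thymocytes, had an adjusted p below 0.05 for 5 genes. On the log2 scale it was -2.45 for the brightest Gimap4 probe set and -2.43 for its second, -1.26 for Gimap3, -0.92 for Gimap7 (1425084_at), -0.78 for Gimap9 and -0.72 for Gimap6 (1427891_at). The second probe sets of Gimap7 (1444283_at, -0.17) and Gimap6 (1456762_at, -0.55) did not pass.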

How the results depend on the processing

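Counts of called genes stayed within 1.5 times of those reported in 242 of 244 cases under alternatives other than leaving out arrays, and in 215 of 218 when an array was left out. A count that stayed at 0 was taken as unchanged. The count called lower was 0 in every comparison but the interaction, so these shares include many counts of 0. In central over subcapsular cortex the count of genes called higher ranged from 1 to 4 when arrays were left out. With only the arrays without a wide tail, 2 genes were called higher in whole cortex than in sorted cortical thymocytes and 1 lower in whole medulla than in sorted medullary thymocytes, from fewer arrays (1 and 0 with all arrays). The cortical steps kept their arrays, fold changes and counts in that limma fit, but SEs were smaller. Adjusted p was 0.0085 for the Gimap8 inner step, 0.020 for the Gimap7 outer step and 0.0040 for Gimap1 in perimedullary minus subcapsular cortex. For the inner minus outer step of Gimap6 it was 0.0030. Adjusted p-values above 0.05 in the cortex thus depend on the spread of the other groups. Of the fold changes of genes that changed sign, none had been called. Gimap1 in whole medulla over whole cortex had -0.020 with array weights, -0.16 without wide-tail arrays and -0.13 to 0.054 when arrays were left out. Gimap9 in sorted medullary over sorted cortical thymocytes had -0.063 with tail width as a factor. Gimap8 in whole medulla over perimedullary cortex had -0.013 after quantile normalization, -0.0078 with array weights, -0.11 with tail width as a factor, -0.14 without wide-tail arrays and -0.031 to 0.081 when arrays were left out. In whole cortex over sorted cortical thymocytes, Gimap8 had -0.087 with tail width as a factor, -0.12 without wide-tail arrays and -0.054 to 0.090 when arrays were left out, and Gimap9 had -0.0021 and -0.21 in the first 2 of these. The Gimap5 interaction ranged from -0.21 to 0.0061 when arrays were left out. The causes were not tested. Quantile normalization moved the median of all probe sets from 0.10 to -0.09 in whole medulla over whole cortex and from 0.15 to -0.08 in whole medulla over perimedullary cortex. Same-numbered arrays did not deviate together in every pair of any comparison (correlations from -0.13 to 0.25), so the numbers were not taken to pair samples, and with the replicate block the counts called higher were 3 in perimedullary over central cortex, 2 in central over subcapsular cortex, 5 in whole medulla over whole cortex and 6 in sorted medullary over sorted cortical thymocytes. The block changed no call. Fits with only wide-tail arrays were possible for whole medulla over whole cortex and over sorted medullary thymocytes, since the other comparisons have a group without such arrays.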
